A study of Mus musculus with 40 samples.

Results

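The genes described here are the Notch receptors *Notch1*, *Notch2*, *Notch3* and *Notch4*, the ligands *Dll1* and *Jag1*, and the target genes *Hes1*, *Hes5*, *Hey1* and *Nrarp*. The 10 genes were listed by symbol and matched to Ensembl identifiers through the GENCODE M21 annotation, among 55536 genes counted in all. RNA was sequenced from mouse embryonic stem cells (mESCs) grown on gelatin in serum with LIF, which were of 3 genotypes. There were 2 WT replicates, the *Ccnc* KO was present as D1, G2 and H5, 3 separate clones, and the *Cdk8* KO likewise as B9, C8 and H4. Each of these cell lines was treated for 4 h with DMSO or with 900 nM AZD6738, an inhibitor of the kinase ATR (ATRi). Each knockout clone is 1 cell line derived by CRISPR-Cas9 editing of Cas9-expressing mESCs, so the 2 libraries of a clone share its cells. The *Ccnc* KO and the *Cdk8* KO libraries were sequenced in separate multiplexes, and the 4 WT libraries were sequenced in both, so the tests of the 2 knockouts share their control samples. WT replicate 2 under ATRi was excluded by the study and is left out of the tests here, which leaves 3 WT and 6 knockout libraries in each multiplex. Its values are given for *Jag1*, *Hes5*, *Hey1*, the sum of trophectoderm markers, and the ATRi changes of *Notch1* and *Notch3*.

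Notch receptors are cell surface proteins that a Delta or Jagged ligand on a neighbouring cell activates. Metalloproteases and then gamma-secretase release the Notch intracellular domain, which enters the nucleus, binds the DNA-binding protein RBPJ together with a Mastermind coactivator, and turns on target genes such as those of the HES and HEY repressor families. Cyclin C with its kinase CDK8, a module of the Mediator complex, is known to phosphorylate the intracellular domain and so mark it for degradation through the ubiquitin ligase FBXW7. In mESCs the pathway is best known for its part in commitment to the neural lineage. The comparison of the knockouts with WT asks whether the mRNA of the pathway's receptors, ligands and targets differs where this kinase module lacks a subunit, and the comparison of ATRi with DMSO asks the same of the drug.

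Libraries held between 30899823 and 67274049 counts. *Ccnc* mRNA lay between 4.24 and 7.40 CPM (counts scaled to library size) in the 6 *Ccnc* KO libraries and between 43.6 and 45.1 CPM in the 3 WT libraries of that multiplex. *Cdk8* mRNA was lower by 0.35 ± 0.06 on the log2 scale (SE, adjusted p = 0.011) in *Cdk8* KO, a partial loss of mRNA that leaves the transcript at 52.3 to 64.6 CPM. The study checked its knockout clones by western blot and genotyping, and it reported less Cyclin C protein in *Cdk8* KO cells as well. The mRNA level is thus no measure of the CDK8 protein left. Markers of pluripotent stem cells, 10 of 10 detected, were lower in sum in both knockouts. In the *Ccnc* multiplex they summed to 3840 to 4093 CPM in the WT libraries tested and to 3280 to 3691 CPM in the knockout. In the *Cdk8* multiplex the sums were 3760 to 4015 CPM and 2737 to 3632 CPM. Of the 10 markers, 3 passed as lower and 1 as higher in *Ccnc* KO, where 5.28% of all genes passed as lower. In *Cdk8* KO 1 passed as lower, where 2.03% of all genes did. Of 10 primitive endoderm markers, 8 passed the test as higher in *Ccnc* KO, where 1303 of 18577 genes did. In *Cdk8* KO 10 of these markers did, where 426 of 18721 genes did. Their summed level was 130 to 152 CPM in the WT libraries tested, 222 to 362 CPM in *Ccnc* KO and 384 to 627 CPM in *Cdk8* KO, and their part in the results on Notch genes was not tested. Of 8 neuroectoderm markers, 6 were tested in *Ccnc* KO, where *Sox1* (-0.62) and *Pax6* (-1.35) passed as lower and *Sox3* (0.59) and *Zfp521* (1.119) as higher on the log2 scale, and none of 7 passed in *Cdk8* KO. Their sum was 115 to 137 CPM in *Ccnc* KO against 145 to 156 CPM in WT. In *Cdk8* KO it was 132 to 171 CPM against 139 to 153 CPM in WT. *Tubb3* had the most counts of the list except in *Cdk8* KO clone H4. There *Nes* had 3026 counts under DMSO and 4092 under ATRi, against 2167 and 2227 of *Tubb3*. Of 5 trophectoderm markers, 3 passed as higher in *Ccnc* KO and 1 of 4 tested in *Cdk8* KO. Their sums were 3.38 to 4.86 CPM in the WT libraries tested, 6.997 to 9.06 CPM in *Ccnc* KO and 6.38 to 16.2 CPM in *Cdk8* KO. The WT library left out gave 6.81 CPM in the *Ccnc* multiplex. In the *Cdk8* multiplex it gave 7.28 CPM, inside the range of *Cdk8* KO. The part of these lists was likewise not tested. In RNA from bulk cultures, fewer cells that hold a transcript and less of it per cell cannot be told apart.

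*Hes5* and *Nrarp* are shown by their promoters because both are direct targets of the pathway, while *Hes5* was the lowest of the 10 genes relative to WT in both knockouts and *Nrarp* was not. The RefSeq windows of GRCm38.p6 give the 250 bases before the transcription start, 5′ to 3′ on the gene's strand, for 8 of the 10 genes. The window of *Hes5* is chr4:154960673-154960922 and that of *Nrarp* is chr2:25180508-25180757, both on the plus strand. Capitals mark the letters searched on both strands, GTGGGAA (the RBPJ motif) and CACGTG (an E-box, the kind of site that HEY proteins and other bHLH factors bind).
Hes5: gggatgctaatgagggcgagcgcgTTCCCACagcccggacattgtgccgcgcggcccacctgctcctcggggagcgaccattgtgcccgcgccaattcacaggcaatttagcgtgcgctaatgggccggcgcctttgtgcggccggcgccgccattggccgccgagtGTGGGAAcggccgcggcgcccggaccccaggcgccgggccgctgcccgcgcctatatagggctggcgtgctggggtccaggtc
Nrarp: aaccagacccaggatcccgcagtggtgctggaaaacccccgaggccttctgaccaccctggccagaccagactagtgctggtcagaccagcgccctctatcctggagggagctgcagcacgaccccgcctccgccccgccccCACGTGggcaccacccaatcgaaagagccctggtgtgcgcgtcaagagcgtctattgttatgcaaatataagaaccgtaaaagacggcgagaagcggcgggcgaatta
The *Hes5* window holds 2 matches of GTGGGAA, the first starting 226 bases and the second 83 bases before the start, on opposite strands. Of 32851 promoter windows, 5.42% hold these letters at least once, and among the 8 genes with a window *Hes5* is the one that does. The target genes *Hes1* and *Hey1* had no window and were not searched. The *Nrarp* window holds 1 CACGTG, starting 108 bases before the start, and 6.02% of all windows hold one. The shorter core TGGGAA, which lies inside GTGGGAA, occurs in 21.6% of all windows and likewise in *Hes5* alone among the 8 genes with a window. Bases outside these windows were not searched. Whether the matches have a part in the level of *Hes5* or *Nrarp* was not tested.

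In WT cells under DMSO the 10 genes spanned a wide range of levels. Per kilobase of exon, *Hes1* stood highest with 15.1 ± 0.21 CPM per kb (SD, n = 2, *Ccnc* multiplex), ahead of *Notch3* with 4.57 ± 0.85. *Jag1* (3.51 ± 0.00089 CPM per kb), *Notch1* (3.01 ± 0.54) and *Notch2* (2.77 ± 0.24) followed. *Nrarp* (2.13 ± 0.37 CPM per kb) and *Notch4* (2.04 ± 0.25) came next, and their ranges over the 2 libraries overlapped, as did those of *Notch1* and *Notch2*. *Hey1* (0.87 ± 0.012), *Dll1* (0.44 ± 0.13) and *Hes5* (0.41 ± 0.071 CPM per kb) were lowest, and *Dll1* and *Hes5* overlapped. In the *Cdk8* multiplex, where the same WT samples were sequenced again, the order was the same except that *Notch4* stood above *Nrarp*, and *Jag1* and *Notch1* overlapped as well. *Hes5* rested on 4 to 32 counts per library, and *Dll1* on 43 to 117, so both carry more counting error than the other 8 genes.

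**Figure D1:**
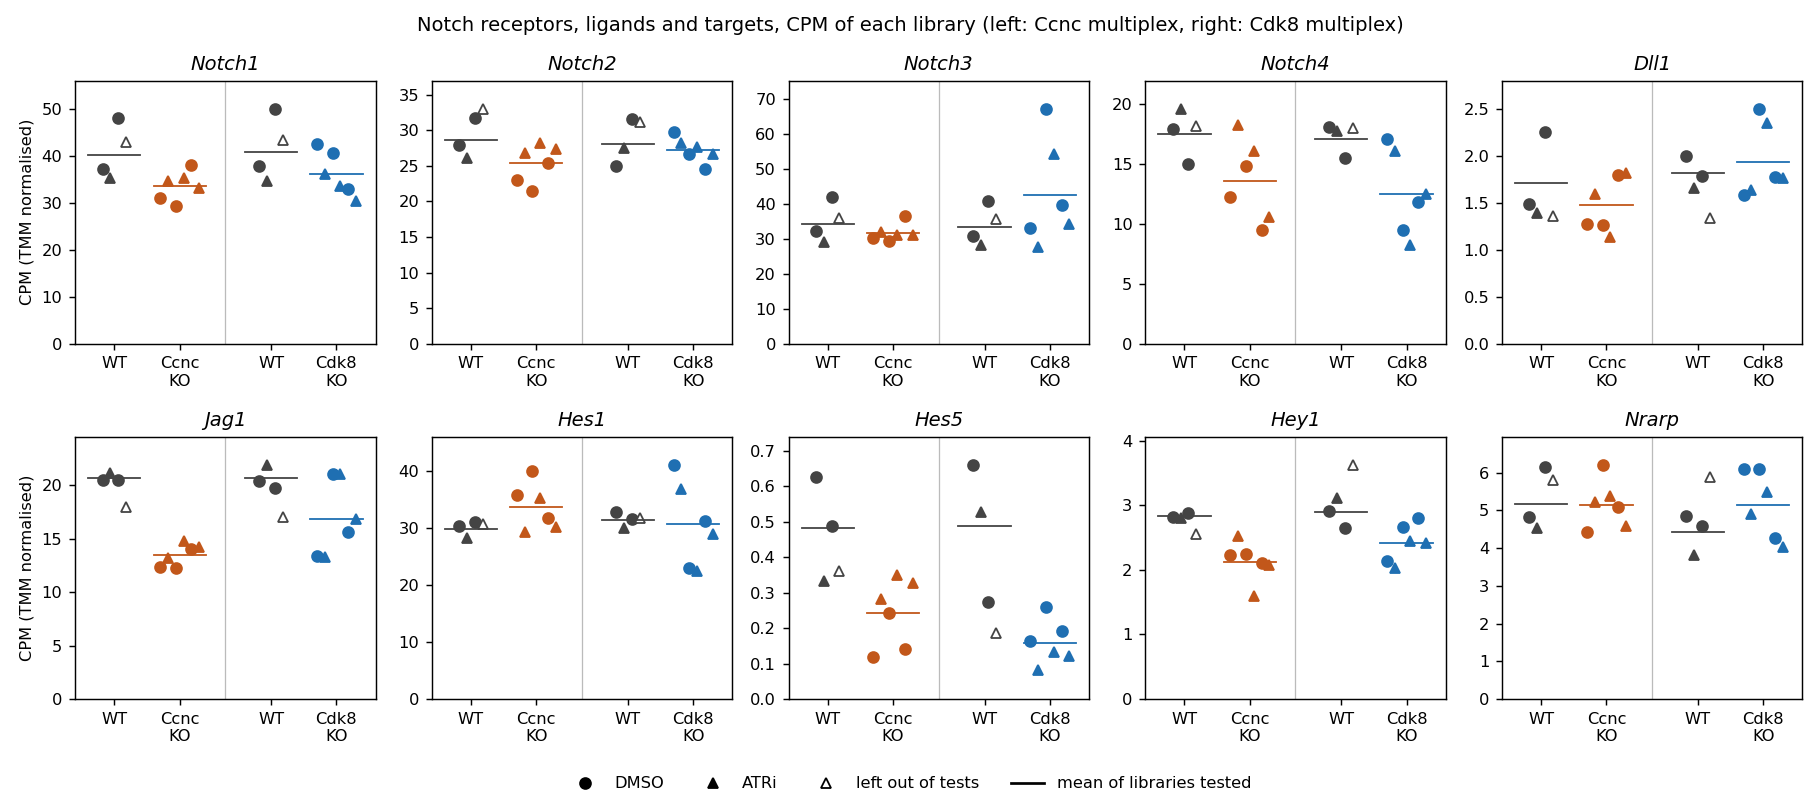
CPM (vertical axes, from 0) of the 10 genes in every library, with the *Ccnc* multiplex on the left and the *Cdk8* multiplex on the right of each panel. Circles are DMSO, triangles ATRi, open triangles the WT library left out of the tests, and lines the means of the libraries tested. *Jag1* lies at 12.3 to 14.8 CPM in *Ccnc* KO against 20.5 to 21.2 CPM in the WT libraries tested, and *Notch3* reaches 67.0 CPM in 1 *Cdk8* KO clone.

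Among the 10 genes, *Jag1* was lower in *Ccnc* KO and *Hes5* passed as lower in *Cdk8* KO, and the other 18 of the 20 tests did not pass. The *Hes5* call was lost with the clone as a replicate block (adjusted p = 0.27), and its log2 difference went from -1.61 to -0.43 without WT replicate 1. A gene passed at an adjusted p under 0.05 in the edgeR quasi-likelihood test, adjusted by Benjamini-Hochberg over all genes tested. In *Ccnc* KO, 1 of 10 passed, where 12.3% of 18577 genes did (5.28% as lower). In *Cdk8* KO, 1 of 10 passed, where 4.31% of 18721 genes did (2.03% as lower). With the study's further requirement of a change above 2-fold, none of the 10 passed in *Ccnc* KO, against 1.94% of all genes, and *Hes5* passed in *Cdk8* KO, against 1.05%. The median log2 difference over the 10 genes was -0.22 in *Ccnc* KO and -0.09 in *Cdk8* KO, with 0.003 and 0.009 over all genes. For 9 of the 10 genes in each knockout, the 95% interval of the difference lay within 2-fold of WT, as it did for 78.5% of all genes in the *Ccnc* KO test and 74.4% in the *Cdk8* KO test. *Hes5* was the exception in both.

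**Figure D2:**
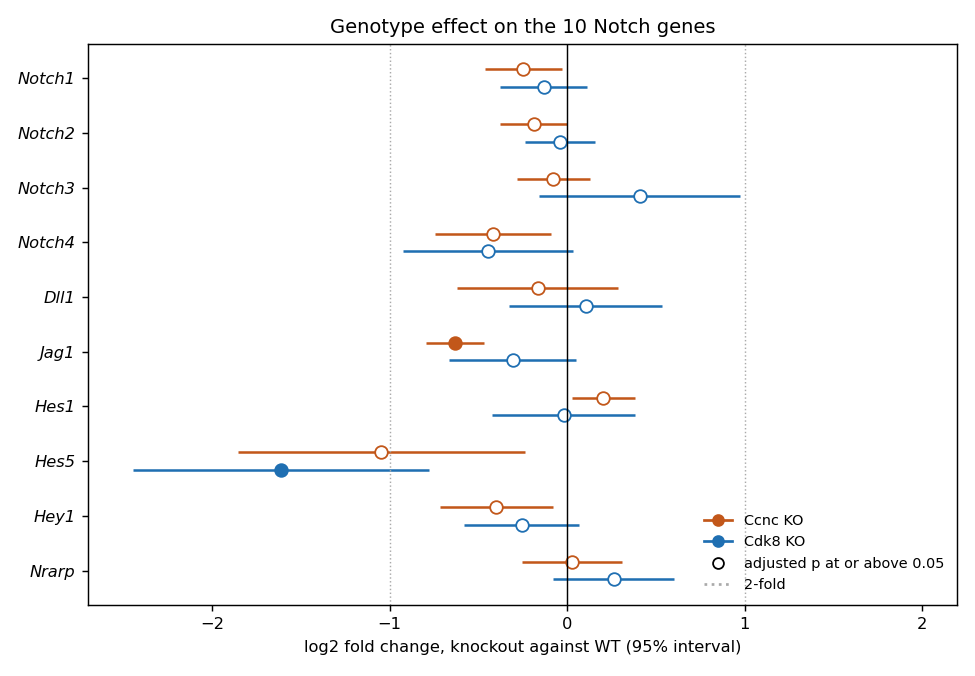
Log2 fold change of each of the 10 genes, knockout against WT, with 95% intervals (horizontal axis). Orange is *Ccnc* KO and blue *Cdk8* KO, filled points passed at an adjusted p under 0.05, and dotted lines mark 2-fold. The filled points are *Jag1* at -0.63 in *Ccnc* KO and *Hes5* at -1.61 in *Cdk8* KO, which does not pass with the clone as a replicate block.

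None of the 4 receptors passed in either knockout. *Notch1* (chr2:26457903-26516663, minus strand) is a receptor used in many tissues. It lay at 37.3, 48.2 and 35.4 CPM in the WT libraries tested (replicate 1 DMSO, replicate 2 DMSO, replicate 1 ATRi) and at 29.3 to 38.1 CPM in the 6 *Ccnc* KO libraries, with a median of 33.97 CPM. WT replicate 2 stood above all other libraries, and the ranges of the groups overlapped. The log2 difference was -0.25 ± 0.10 (SE, adjusted p = 0.13) in *Ccnc* KO and -0.13 ± 0.11 (adjusted p = 0.52) in *Cdk8* KO. It moved with the WT replicate used, to -0.55 without WT replicate 1 and -0.11 without WT replicate 2 in *Ccnc* KO (adjusted p 0.018 to 0.51 over all alternatives, the lowest with a filter of at least 1 count). *Notch2* (chr3:98013527-98150361, plus strand), which shares 541 bases of exon with the same-strand gene *Gm42820*, differed by -0.19 ± 0.09 (adjusted p = 0.19) in *Ccnc* KO, by -0.44 without WT replicate 1 and by -0.10 without WT replicate 2. In *Cdk8* KO the difference of *Notch2* was -0.04, with a 95% interval from -0.24 to 0.15.

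*Notch4* (chr17:34564268-34588503, plus strand), best known from endothelium, had lower estimates in both knockouts, and its groups overlapped. It lay at 17.9, 15.0 and 19.6 CPM in the WT libraries of the *Ccnc* multiplex (same order as above), at 12.2, 14.8 and 9.52 CPM in D1, G2 and H5 under DMSO, and at 18.2, 16.1 and 10.6 CPM in the same clones under ATRi. Clone H5 was the low one under both treatments. In the *Cdk8* multiplex *Notch4* lay at 18.1, 15.5 and 17.8 CPM in WT, at 17.1, 9.47 and 11.8 CPM in B9, H4 and C8 under DMSO, and at 16.1, 8.27 and 12.5 CPM under ATRi. Here B9 was within the WT range and the other 2 clones were below it. The log2 difference was -0.42 ± 0.15 (adjusted p = 0.094) in *Ccnc* KO and -0.45 ± 0.21 (adjusted p = 0.27) in *Cdk8* KO. *Notch4* passed in *Ccnc* KO with DESeq2 (adjusted p = 0.043) and with a filter of at least 1 count (adjusted p = 0.0004), with a range of 0.0004 to 0.62 over all alternatives. In *Cdk8* KO it passed without clone B9 (-0.71, adjusted p = 0.029, with a range of 0.029 to 0.85 over all alternatives). Of 5 endothelial markers, *Emcn* was at 0 in the libraries tested and the other 4 were tested. *Vwf* passed as lower in both knockouts (-0.87 and -0.75 on the log2 scale) and *Cdh5* as higher in *Cdk8* KO (1.75). The 5 summed to 6.61 to 7.14 CPM in the WT libraries tested and 5.62 to 8.96 CPM in *Ccnc* KO. In the *Cdk8* multiplex they summed to 7.05 to 7.49 CPM in the WT libraries tested and 7.43 to 9.31 CPM in *Cdk8* KO. Their part in the level of *Notch4* was not tested.

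*Notch3* (chr17:32120820-32166852, minus strand) stood apart in 1 clone. It lay at 67.0 CPM under DMSO and 54.2 CPM under ATRi in H4, against 27.5 to 39.6 CPM in the other 4 *Cdk8* KO libraries. WT of the same multiplex gave 30.7, 40.7 and 28.3 CPM, so that B9 and C8 lay within or near the WT range and H4 lay above it. Over the 3 clones the log2 difference was 0.41 ± 0.25 (adjusted p = 0.39), and it was -0.08 ± 0.10 (adjusted p = 0.66) in *Ccnc* KO. H4 also had the lowest summed level of pluripotent stem cell markers of the *Cdk8* KO clones, 2737 and 2827 CPM against 3233 to 3632 CPM. Its sum of primitive endoderm markers was lowest too, 384 and 400 CPM against 442 to 627 CPM. H4 had the highest sum of fibroblast markers, 19.6 and 23.0 CPM against 7.16 to 8.75 CPM. The WT libraries tested of this multiplex gave 3.89 to 5.38 CPM, below all *Cdk8* KO libraries. H4 was highest as well in trophectoderm markers, 14.5 and 16.2 CPM against 6.38 to 7.95 CPM. The same held for neuroectoderm markers, 162 and 171 CPM against 132 to 149.7 CPM. Each of these 3 raised sums was led in H4 by 1 gene, *Krt7* (trophectoderm), *Col1a1* (fibroblast) or *Nes* (neuroectoderm). Counts of *Krt7* were 360 and 443, and 34 to 110 in the other 4 *Cdk8* KO libraries. Those of *Col1a1* were 547 and 763, and 99 to 269. The fibroblast marker *Thy1* (76 and 90 counts, elsewhere 138 to 283) and *Tubb3* (2167 and 2227, elsewhere 2987 to 5063) were instead lower in H4. The trophectoderm marker *Eomes* had 128 and 208 counts, elsewhere 114 to 318. The part of these differences in the level of *Notch3* was not tested.

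Of the 2 ligands, *Jag1* passed in *Ccnc* KO and *Dll1* in neither knockout. *Jag1* (chr2:137081456-137116644, minus strand), a ligand of the Jagged type, lay at 12.3, 12.3 and 14.003 CPM in D1, G2 and H5 under DMSO and at 13.2, 14.8 and 14.2 CPM under ATRi. WT gave 20.5 CPM in both DMSO libraries and 21.2 CPM in replicate 1 under ATRi, and the library left out gave 18.0 CPM. All 6 *Ccnc* KO libraries thus lay below all WT libraries, and of all genes tested 6.92% were separated from WT in that direction. The log2 difference was -0.63 ± 0.08, a level 0.65-fold that of WT with a 95% interval from 0.58 to 0.72 (adjusted p = 0.00013). The call held with every alternative run, with log2 differences from -0.67 to -0.57 and adjusted p-values up to 0.035, the highest without WT replicate 1.

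In *Cdk8* KO the clones differed among themselves in *Jag1*. B9 lay at 13.3 CPM under both treatments, C8 at 15.6 and 16.8 CPM, and H4 at 21.02 and 21.10 CPM, with 20.4, 19.7 and 21.9 CPM in WT. B9 and C8 were thus below the WT libraries tested, while H4 lay among them. The log2 difference over the 3 clones was -0.31 ± 0.16 (adjusted p = 0.31), and without H4 it was -0.50 ± 0.10 and passed (adjusted p = 0.015, with a range of 0.015 to 0.81 over all alternatives). *Dll1* (chr17:15367354-15376872, minus strand), a ligand of the Delta type, lay at 1.14 to 1.82 CPM in *Ccnc* KO and 1.59 to 2.50 CPM in *Cdk8* KO, against 1.397 to 2.26 CPM in the WT libraries tested. Its log2 difference was -0.17 ± 0.21 (adjusted p = 0.67) in *Ccnc* KO and 0.10 ± 0.19 (adjusted p = 0.80) in *Cdk8* KO. In *Ccnc* KO it was -0.62 without WT replicate 1 and 0.05 without WT replicate 2.

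Of the 4 target genes, *Hes5* passed in *Cdk8* KO. *Hes5* (chr4:154960923-154962371, plus strand), a HES repressor whose promoter holds the 2 RBPJ matches shown above, was counted 8, 10 and 6 times in B9, H4 and C8 under DMSO and 4, 6 and 8 times under ATRi. In WT of the same multiplex it was counted 32 and 9 times under DMSO in replicates 1 and 2, and 21 times in replicate 1 under ATRi. As CPM these were 0.083 to 0.26 in *Cdk8* KO and 0.66, 0.27 and 0.53 in WT, so that the groups tested did not overlap, as for 6.07% of all genes in this direction, and the nearest libraries were 0.26 CPM in H4 and 0.27 CPM in WT replicate 2. The WT library left out lay at 0.19 CPM, inside the range of the knockout. The log2 difference was -1.61 ± 0.37, with a 95% interval from -2.45 to -0.78 (adjusted p = 0.042).

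This call rested on few counts and on WT replicate 1. Without that replicate the log2 difference of *Hes5* was -0.43 ± 0.57 (adjusted p = 0.84). It was lost as well without clone B9 (-1.48, adjusted p = 0.069), without C8 (-1.61, adjusted p = 0.15) and with the DMSO libraries alone (-1.23, adjusted p = 0.40). With the clone as a replicate block the difference was -1.30 ± 0.50 and did not pass (adjusted p = 0.27), where 1.27% of all genes passed. It passed with DESeq2 (adjusted p = 0.025), with a filter of at least 1 count (0.021) and with the excluded WT library put back (0.046), and over all alternatives the adjusted p ran from 0.021 to 0.84.

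In *Ccnc* KO *Hes5* was counted 4, 9 and 7 times in D1, G2 and H5 under DMSO and 10, 15 and 14 times under ATRi, against 29, 19 and 16 times in WT. The knockout lay at 0.12 to 0.24 CPM under DMSO and at 0.28 to 0.35 CPM under ATRi. The WT libraries tested lay at 0.33 to 0.62 CPM, the lowest of them replicate 1 under ATRi, so the groups overlapped. The WT library left out had 13 counts, or 0.36 CPM. The log2 difference was -1.05 ± 0.38 (adjusted p = 0.087, with a range of 0.044 to 0.19 over all alternatives, the lowest with a filter of at least 1 count). Sequencing the same WT samples in the other multiplex shifted *Hes5* by -0.81 to 0.59 on the log2 scale, which gives the size of counting and sequencing error at this depth.

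*Hes1* (chr16:30064384-30067796, plus strand), a HES repressor and the most abundant of the 10 genes per kilobase, lay at 28.3 to 31.02 CPM in the WT libraries tested of the *Ccnc* multiplex and at 29.3 to 40.1 CPM in *Ccnc* KO, a log2 difference of 0.20 ± 0.08 (adjusted p = 0.13). In *Cdk8* KO it differed by clone, with 41.1 and 36.9 CPM in B9, 31.3 and 29.0 CPM in C8, and 23.1 and 22.5 CPM in H4 (DMSO, then ATRi), against 32.8, 31.6 and 30.1 CPM in WT. B9 lay above WT and H4 below, and the difference over the clones was -0.02 ± 0.18 (adjusted p = 0.96). *Hey1* (chr3:8663359-8667256, minus strand), a HEY repressor, lay at 1.60 to 2.53 CPM in *Ccnc* KO and at 2.80 to 2.88 CPM in the WT libraries tested, with 2.56 CPM in the one left out. Its groups tested did not overlap, as for 6.92% of all genes in this direction. The log2 difference of -0.40 ± 0.15 did not pass (adjusted p = 0.097), except without clone D1 (-0.47, adjusted p = 0.049, with a range of 0.049 to 0.49 over all alternatives). In *Cdk8* KO the log2 difference of *Hey1* was -0.26 ± 0.14 (adjusted p = 0.34). *Nrarp* (chr2:25180758-25183339, plus strand), an ankyrin repeat protein that feeds back on the Notch complex, differed by 0.03 ± 0.13 (95% interval -0.25 to 0.31, adjusted p = 0.92) in *Ccnc* KO and by 0.26 ± 0.15 (-0.08 to 0.60, adjusted p = 0.36) in *Cdk8* KO.

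**Figure D3:**
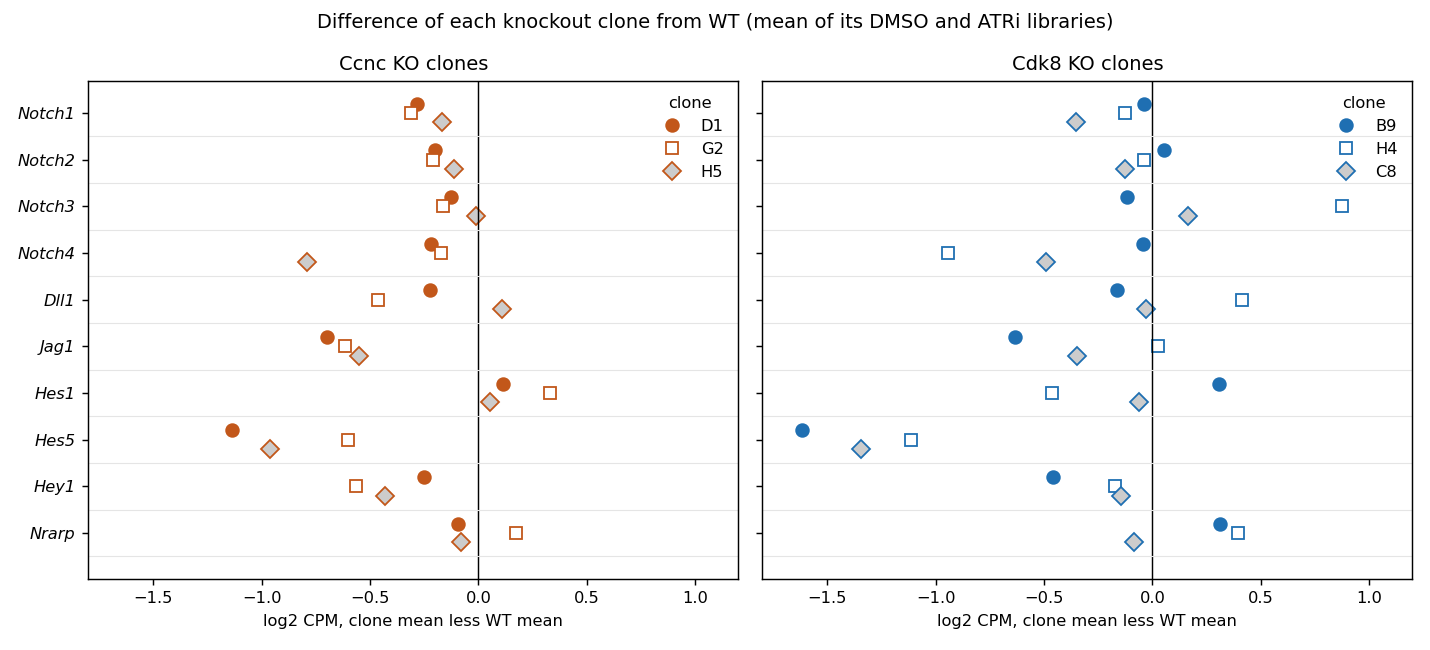
Log2 CPM of each knockout clone (mean of its DMSO and ATRi libraries) less the mean of the WT libraries tested, for the 10 genes. Symbols stand for clones, and 0 is the WT mean. H4 stands at 0.88 for *Notch3* and -0.94 for *Notch4*, while all 3 *Ccnc* KO clones stand between -0.70 and -0.55 for *Jag1*.

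The difference between the 2 genotype effects was tested across both multiplexes, with the multiplex estimated from the WT samples sequenced in both. None of the 10 genes passed, with an adjusted p of at least 0.9989 for each in edgeR, no gene at an unadjusted p under 0.05, and none with DESeq2. Of 19093 genes, 0.00524% passed, which was *Ccnc* itself. For *Jag1* the effect in *Ccnc* KO less that in *Cdk8* KO was -0.32 on the log2 scale with a 95% interval from -0.69 to 0.05, and for *Hes5* it was 0.71 with an interval from -0.41 to 1.83. Neither gene was thus shown to differ between the knockouts, and intervals this wide do not show that it acted alike in them.

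Clones of *Cdk8* KO spread more than those of *Ccnc* KO for several genes. Under DMSO the log2 difference from WT ranged over 1.01 between the *Cdk8* KO clones for *Notch3*, 0.85 for *Notch4*, 0.83 for *Hes1* and 0.65 for *Jag1*. Between the *Ccnc* KO clones the same ranges were 0.31, 0.63, 0.33 and 0.19. For *Hes5* the order was the other way, with 0.54 in *Cdk8* KO and 0.80 in *Ccnc* KO. These are values of 3 clones each and were not tested.

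For ATRi at 4 h, none of the 10 genes passed in either multiplex by the test that leaves the clone out. In the *Ccnc* multiplex 0 of 10 passed in edgeR, none at an unadjusted p under 0.05 and none with DESeq2, where 1.11% of all genes passed. The log2 differences lay between -0.16 (*Hes1*, adjusted p = 0.32) and 0.28 (*Notch4*, adjusted p = 0.37). In the *Cdk8* multiplex 0 of 10 passed in edgeR and with DESeq2, where 0.0855% of all genes passed, and *Notch1* had an unadjusted p of 0.035. For 9 of 10 genes in each multiplex the 95% interval of the ATRi effect lay within 2-fold, with *Hes5* the exception.

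DMSO and ATRi libraries of a clone are the same cell line, so the ATRi effect was also fitted with the clone as a block. In the *Cdk8* multiplex *Notch1* then passed with -0.19 ± 0.04 (adjusted p = 0.012) and *Notch3* with -0.23 ± 0.04 (adjusted p = 0.0043), with ranges of 0.012 to 0.87 and 0.0043 to 0.95 over all alternatives, while 11.3% of all genes passed, 6.39% as lower. *Notch1* was lower with ATRi in 3 of 3 *Cdk8* KO clones, with log2 changes from -0.27 to -0.12, and *Notch3* in 3 of 3, with log2 changes from -0.31 to -0.21. The WT cells gave log2 changes of -0.13 for *Notch1* and -0.12 for *Notch3* in replicate 1 of the same multiplex, and -0.20 for each gene in replicate 2. In the *Ccnc* multiplex no member passed with the block, where 2.43% of all genes did, and *Notch1* was lower in 1 of 3 clones.

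**Figure D4:**
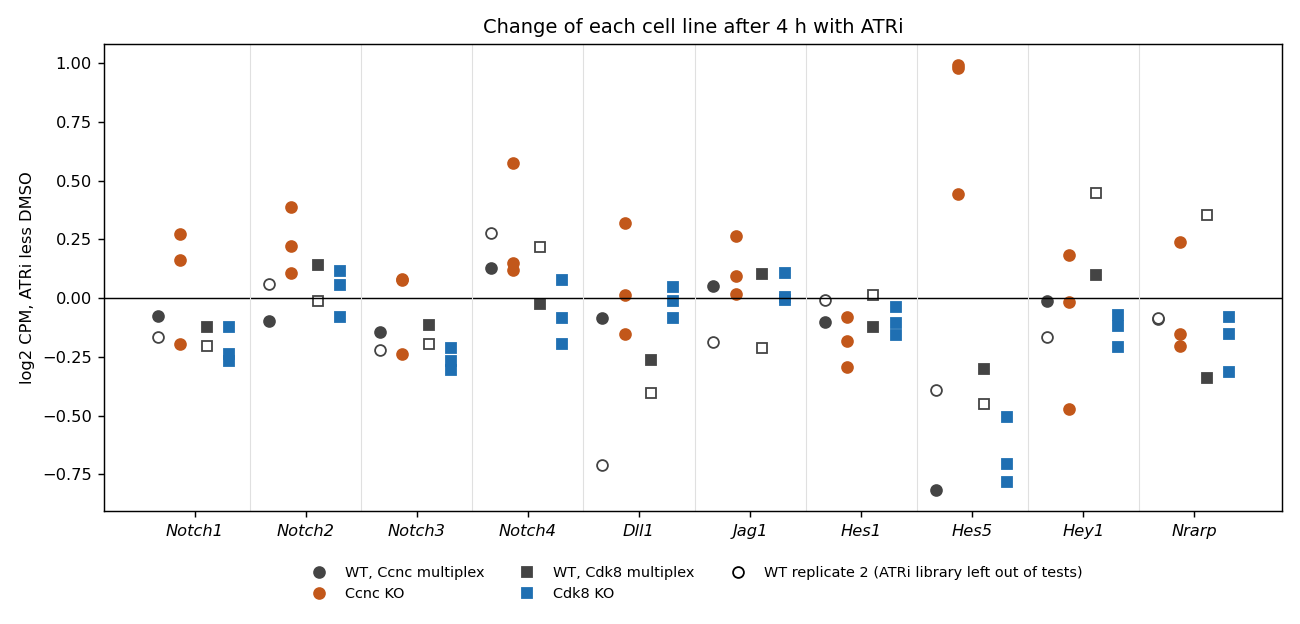
Log2 CPM under ATRi less that under DMSO (vertical axis) for each cell line and gene. Circles are the *Ccnc* multiplex and squares the *Cdk8* multiplex, grey is WT, orange *Ccnc* KO and blue *Cdk8* KO, and open symbols are WT replicate 2. *Notch1* and *Notch3* are below 0 in 3 of 3 *Cdk8* KO clones, and *Hes5* is above 0 in 3 of 3 *Ccnc* KO clones and below 0 in 3 of 3 *Cdk8* KO clones.

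Whether the response to ATRi differed between a knockout and WT was tested by the interaction. No member passed in *Ccnc* KO or in *Cdk8* KO with edgeR or DESeq2, and 0.0% of all genes passed in each. At an unadjusted p under 0.05 there were 2 of the 10 genes in *Ccnc* KO, where 2.13% of all genes were, and none in *Cdk8* KO, where 1.36% were. *Hes5* had an interaction of 1.65 ± 0.68 in *Ccnc* KO (95% interval 0.19 to 3.12, unadjusted p = 0.030, adjusted p = 0.999958), with higher counts under ATRi in 3 of 3 clones, where those of WT replicate 1 went from 29 to 16. *Notch2* had 0.41 ± 0.16 (0.07 to 0.75, unadjusted p = 0.022, adjusted p = 0.999958), with 3 of 3 *Ccnc* KO clones higher under ATRi by 0.11 to 0.39 on the log2 scale.

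Beyond the 10 genes, 67 others of the pathway were listed by role, and 65 of them were tested. In *Ccnc* KO 11 passed, 1 as higher and 10 as lower, where 12.3% of all genes passed and 5.28% did as lower. In *Cdk8* KO 5 passed, all as lower, where 4.31% of all genes passed and 2.03% did as lower. The targeted genes *Ccnc* and *Cdk8* are among these counts, and without the kinase module 9 of 58 and 3 of 58 passed. The median log2 difference was -0.08 in *Ccnc* KO and -0.05 in *Cdk8* KO. *Dlk1* and *Heyl* fell under the filter on low counts and were not tested.

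*Rfng*, *Maml1* and *Med13l* passed as lower in the test of each knockout, with no overlap with WT, as for 6.92% of all genes in *Ccnc* KO and 6.07% in *Cdk8* KO. *Rfng*, a Fringe enzyme that extends the O-fucose sugars of Notch receptors, fell by 0.49 ± 0.07 on the log2 scale in *Ccnc* KO (adjusted p = 0.00063) and by 0.42 ± 0.06 in *Cdk8* KO (adjusted p = 0.0073). *Maml1*, a Mastermind coactivator of the RBPJ complex, fell by 0.33 ± 0.06 (adjusted p = 0.0036) and by 0.36 ± 0.06 (adjusted p = 0.011). *Med13l*, a subunit of the kinase module, fell by 0.42 ± 0.09 (adjusted p = 0.0057) and by 0.29 ± 0.06 (adjusted p = 0.025). The WT samples are shared between these tests, so the second is no independent support of the first. In *Cdk8* KO the clone as a replicate block gave adjusted p-values of 0.032 for *Rfng*, 0.047 for *Maml1* and 0.092 for *Med13l*, and without WT replicate 1 none of the 3 passed (0.34 for each). *Med13l* also did not pass there without clone C8 (0.102) or WT replicate 2 (0.101), and *Rfng* did not pass in *Ccnc* KO without WT replicate 1 (0.052).

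Of the remaining genes, those with the smallest p in each comparison were as follows. In *Ccnc* KO, *Dtx1*, a Deltex ubiquitin ligase, was lower by a log2 difference of -0.60 ± 0.09 (adjusted p = 0.00081) and *Kat2b*, an acetyltransferase of the nuclear complex, by -0.30 ± 0.06 (adjusted p = 0.0058), and neither passed without WT replicate 1 (0.16 and 0.31). In *Cdk8* KO, *Ctbp1*, a corepressor, was lower by -0.15 ± 0.04 (adjusted p = 0.049, and 0.21 with the clone as a replicate block), and *Med12l*, a paralogue of a kinase module subunit, differed by 0.80 ± 0.20 (adjusted p = 0.055). *Dtx1* was also the one listed gene to pass for ATRi, at -0.52 ± 0.09 in the *Ccnc* multiplex (adjusted p = 0.018), and it stood at -0.60 ± 0.12 in the *Cdk8* multiplex (adjusted p = 0.10, and 0.00016 with the clone as a block). The first call was lost without clone G2 (0.14), H5 (0.090) or WT replicate 1 (0.14). The protease *Adam10* (0.22, adjusted p = 0.12) and the atypical ligand *Dll3* (-0.39, adjusted p = 0.13) came next for ATRi in the *Ccnc* multiplex, and the ubiquitin ligases *Neurl1a* (-0.32, adjusted p = 0.17) and *Dtx3* (-0.32, adjusted p = 0.18) in the *Cdk8* multiplex, where both passed with the clone as a block (0.0036 and 0.00023). *Jag2*, a second Jagged ligand, was lower in *Ccnc* KO by a log2 difference of -0.44 ± 0.10 (adjusted p = 0.012), which did not pass without clone G2 (0.064) or WT replicate 2 (0.076). In the interaction tests no listed gene passed. The smallest unadjusted p-values in *Ccnc* KO were those of *Jag2* (an interaction of 0.44), the corepressor *Spen* (0.35) and the ubiquitin ligase *Mib2* (0.28), and in *Cdk8* KO those of the protease *Adam17* (-0.23), the ubiquitin ligase *Mib1* (-0.18) and the ligand *Dll4* (-1.81, from 2 to 7 counts a library). Between the knockouts *Cdk8* (0.24) and *Mib1* (-0.22) did not pass, both at an adjusted p of 0.9989.

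**Figure D5:**
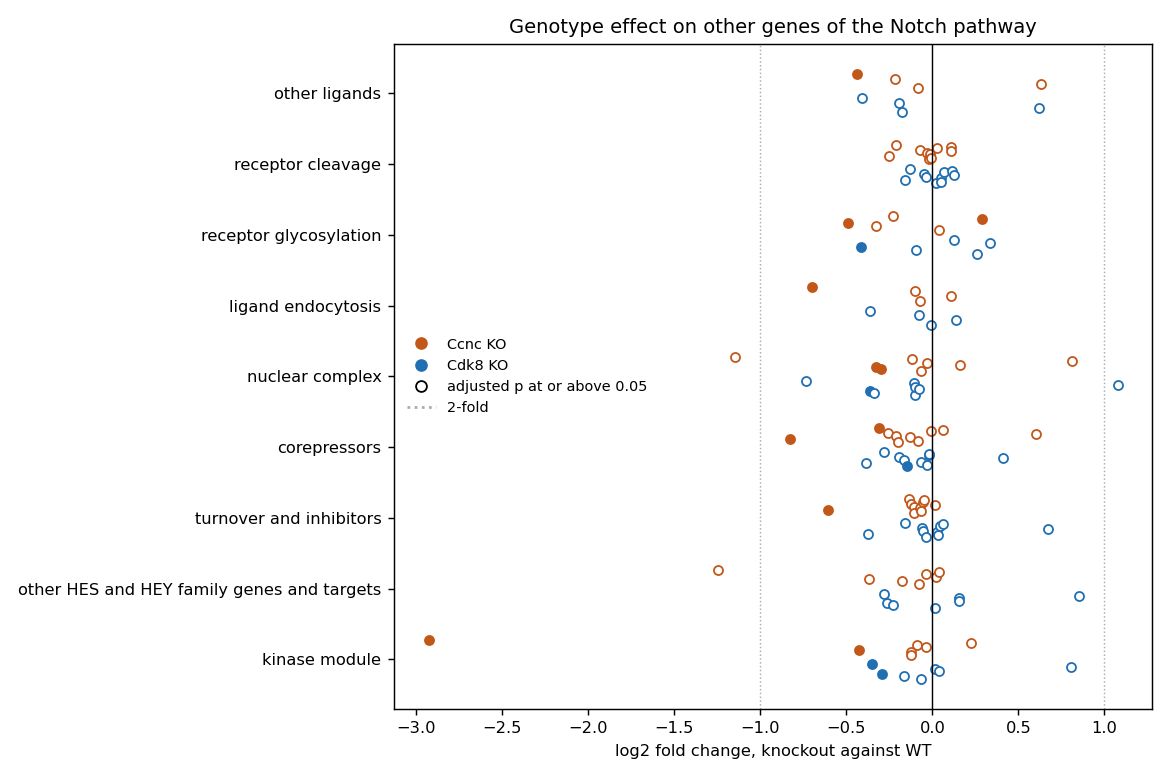
Log2 fold change, knockout against WT (horizontal axis), of the 65 other pathway genes tested, in rows by role. Orange is *Ccnc* KO and blue *Cdk8* KO, and filled points passed at an adjusted p under 0.05. The point at -2.93 in the kinase module is *Ccnc* in *Ccnc* KO, and all filled points but 1 lie below 0.

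Across the 20 libraries, with each multiplex centred on its WT DMSO mean, some pairs of the 10 genes moved alike. Pearson's r of log2 CPM was 0.75 for *Notch1* with *Notch2*, 0.71 for *Notch3* with *Dll1*, and -0.72 for *Notch3* with *Hes1*. Libraries of a clone share its cells, and 4 WT samples appear in both multiplexes, so the 20 points are not independent and the values are descriptions. Of 18130 genes tested in both multiplexes, the 3 most like *Jag1* were *Pde7a* (r = 0.96), *Stk17b* (0.96) and *Sulf1* (0.95). *Notch3* was most like *Col2a1* (r = 0.95), *Frmd4b* (0.95) and *Ptpn14* (0.93). The genes most like *Notch4* were *Ppm1j* (r = 0.94), *Bmp4* (0.90) and *Xbp1* (0.90), and those most like *Hes1* were *Rapgef3* (r = 0.94), *Camta1* (0.91) and *Vegfc* (0.90). *Notch1* went with *Elmsan1* (r = 0.96), *Abca2* (0.91) and *Adgra3* (0.90), and *Notch2* with *Ubr4* (r = 0.93), *Trrap* (0.92) and *Macf1* (0.92). For the less abundant genes the highest r was lower, 0.88 for *Hey1* with *Aldh1a2*, 0.85 for *Nrarp* with *Pitpnm2*, 0.84 for *Hes5* with *Cdkn2d* and 0.83 for *Dll1* with *Ptk7*.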

How the data were processed

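RNA-seq of poly(A) RNA gave 40 lane samples, which are 20 libraries of 2 lanes each. The authors trimmed single-end reads with Trimmomatic 0.38, aligned them to GRCm38.p6 with HISAT2 2.1.0 and counted reads per gene on the stranded setting with featureCounts 2.0.1, and deposited raw counts per gene and lane. Reads marked as duplicates were ignored in the counting, and reads shared by overlapping genes on 1 strand cannot be assigned from counts. The deposited rlog values were not used. Lanes were summed, and each multiplex was fitted on its own with edgeR 4.0.16 in R 4.3.3 (TMM, filterByExpr, quasi-likelihood test, Benjamini-Hochberg over all genes), with genotype beside treatment. Intervals are 95% intervals of the fitted log2 fold change. Log2 CPM used a prior count of 2. Alternatives used DESeq2 1.42.0, limma 3.58.1 and other filters, samples and blocks. The tests without a clone term were checked on simulated counts in which all libraries were independent. Such data cannot check their error rate where libraries share a clone.

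DMSO and ATRi libraries of a clone are paired because they are the same cell line. Their deviations from the group means correlated at 0.02 to 0.63 over genes. The labels do not say that the 2 WT replicates came from separate derivations, so p-values cover these cultures and clones only. The main tests leave the clone out and count its 2 libraries as separate. Their p-values thus measure the spread between libraries and not that between clones. The members and lists were chosen with earlier results of these data known. Named were all 10 members, other pathway genes that passed in both knockouts, and of the rest the 3 with the smallest p in each comparison. For likeness, the 3 genes with the highest r were named.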

Additional observations from a re-analysis of the deposited data

Results flagged for a closer look

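*Hes5* was higher with ATRi in 3 of 3 *Ccnc* KO clones, by 0.98 (D1), 0.44 (G2) and 0.99 (H5) on the log2 CPM scale, and lower in 3 of 3 *Cdk8* KO clones, by log2 changes of -0.71 (B9), -0.78 (H4) and -0.50 (C8). The mean change was 0.80 in the first group and -0.66 in the second, a difference of 1.47, and this difference itself was not tested. The libraries held 4 to 15 counts of *Hes5* each, and both WT replicates were lower with ATRi in both multiplexes. With groups of at most 3 libraries, single libraries were not screened for outlying values.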

How the results depend on the processing

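The number of the 10 genes that passed was recomputed under each alternative. In *Ccnc* KO 1 passed, 2 with DESeq2 and 4 with a filter of at least 1 count, and 1 to 2 when a replicate was left out. With the 2-fold requirement none passed there, and 1 did (*Hes5*) with the filter of at least 1 count. In *Cdk8* KO 1 passed, 0 with the DMSO libraries alone, 0 with the clone as a replicate block, and 0 to 2 when a replicate was left out. With the 2-fold requirement 1 passed there, 0 with the DMSO libraries alone, 0 with the replicate block, and 0 to 1 when a replicate was left out. For the ATRi effect in the *Cdk8* multiplex the replicate block gave 2, *Notch1* and *Notch3*, in place of 0, and for all genes it gave 2107 in place of 16. The block changed no count of the 10 genes in the *Ccnc* KO comparison, the ATRi effect in the *Ccnc* multiplex, the interactions or the difference between the knockouts. Counts over all genes moved more. In *Ccnc* KO 2284 genes passed, 635 with the DMSO libraries alone and 289 to 2640 when a replicate was left out. In *Cdk8* KO 806 passed, 1731 with DESeq2, 237 with the replicate block, 5 with the DMSO libraries alone and 1 to 1512 when a replicate was left out, the fewest without WT replicate 1. For ATRi in the *Ccnc* multiplex 206 passed, 647 with DESeq2, 845 with a filter of at least 1 count, 451 with the replicate block, 41 with the excluded WT library and 21 to 250 when a replicate was left out. In the *Cdk8* multiplex it was 354 with DESeq2, 41 with the filter of at least 1 count and 0 to 29 when a replicate was left out. The interactions gave 0 genes, except 20 in *Ccnc* KO with that filter and 4 in *Cdk8* KO with the replicate block, and the difference between the knockouts gave 1, except 4 with that filter and 11 without clone B9. No called value changed sign. The causes of these changes were not tested. Of 740 values of single genes under alternatives, 677 kept their direction and their side of the threshold, 9 newly passed, 5 no longer passed, all of them *Hes5* in *Cdk8* KO, and 49 changed sign without passing in either. The interaction could not be fitted without WT replicate 1, which leaves no WT library under ATRi. Depth limits *Hes5* and *Dll1*, as their counts show, and 1 WT library under ATRi remains in the main tests, whose spread is taken from the other groups.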
